A study of Schizosaccharomyces pombe with 9 samples.

Results

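RNA levels were compared directly between 2 mutants of Snf22, the catalytic subunit of SWI/SNF in fission yeast. One strain, snf22-(D996A-E997A), codes for a Snf22 with a pair of alanines in place of the acidic residues of its ATPase site. The other, snf22∆, lacks most of the reading frame. The comparison used 6 of the 9 libraries of the series, chosen by their labels as all those of the mutants, 3 biological replicates each, and every gene was tested on the raw counts of those 6. The 3 wild-type (WT) libraries entered the scaling factors, which were computed over all 9, and were left out of the test. They show where a level lay in unmutated cells. All strains were haploid cells of Schizosaccharomyces pombe in vegetative growth, from log phase cultures in YES, a rich medium, at 30°C. Their labels give h- as the mating type of every strain. The strain list of the study gives snf22∆::kanMX without a second marked gene as h+, and snf22-(D996A-E997A)::kanMX as h-. Which listed strain was sequenced is not stated.

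Each genotype was a single strain, so the replicates are cultures of 1 strain and their p-values measure the spread between cultures. In snf22∆ a kanMX drug resistance cassette took the place of the reading frame from its start, and only a last part of the frame stayed behind. In snf22-(D996A-E997A) the same cassette was placed 3′ of the gene, with a poly(A) site taken from nmt1 between them. WT, by its label, carried no kanMX cassette. The strain list of the study gives all strains the same leu1, ura4 and his3 mutations, and either of a pair of ade6 alleles. Which ade6 allele each sequenced strain carried is not stated. The different position of the cassette and the added poly(A) site cannot be told apart from the effect of the alleles in this design.

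SWI/SNF complexes use ATP hydrolysis to slide, remodel or evict nucleosomes, and in yeasts they act at the promoters of many regulated genes, among them genes of nutrient uptake. The remodeling ATPase belongs to the DExH group of helicase-like enzymes, in which the acidic pair of motif II binds the metal that ATP hydrolysis needs. Loss of that pair removes the catalytic step but can leave a protein that still joins its partners, whereas a deletion removes the protein as well. The comparison asks which transcripts differ between these states. Protein levels and complex assembly were not measured in these libraries.

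The libraries held 20386550, 20796833 and 19542805 counts in snf22-(D996A-E997A) and 22196070, 22664218 and 19526308 in snf22∆. Log2 normalized counts correlated at 0.9935 to 0.9969 between replicates and at 0.9788 to 0.9831 between the mutants (Pearson, across the 6013 genes tested), and the first principal component of the 6 libraries, which separated the genotypes, held 71.8% of the variance. Replicate 1 of snf22-(D996A-E997A) stood somewhat apart from the other two: its chi-square per gene against them was 34 and 35.3, whereas theirs was 5.93 and pairs of snf22∆ libraries gave 7.97 to 18.8. Counts that rest on this library are given with and without it. No pair of replicates agreed within counting noise.

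The genotypes were checked on snf22 itself (SPCC1620.14c). Its normalized counts, that is counts scaled to a common library size, were 1966, 2273 and 2312 in snf22-(D996A-E997A), against 1471, 1379 and 1222 in snf22∆, and 2835, 2779 and 2738 in WT (log2 difference 0.69, SE 0.08, edgeR adjusted p = 0.000139). Here and below a positive log2 difference means a higher level in snf22-(D996A-E997A), SE is its standard error, and p-values are adjusted over all genes tested. The transcript was thus counted in snf22∆ too, at a lower level in every library. Part of the gene was kept in that strain, and a count per gene does not show where in the gene its reads fell. The other 11 SWI/SNF subunits listed gave 95% intervals within 2-fold of equality between the mutants, as did all 7 RSC subunits. Only snf5, which codes for a core subunit, passed the test among those 11, with normalized counts of 726, 765 and 797 in snf22-(D996A-E997A), against 1083, 942 and 949 in snf22∆ (log2 difference −0.38, SE 0.08, edgeR adjusted p = 0.00397).

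Of 4973 protein-coding genes tested, 41 were called higher in snf22-(D996A-E997A) than in snf22∆ (0.824%) and 36 lower (0.724%). A gene was called when the edgeR quasi-likelihood test gave an adjusted p of at most 0.05, the mutants differed by at least 2-fold, and the mean normalized count reached 100 in the mutant with more. In all 77 the 3 libraries of one mutant lay wholly above the 3 of the other, which was true of 48.1% of all coding genes tested without regard to size. At least 4-fold differences numbered 11 each way. By the adjusted p alone 855 genes were higher (17.2%) and 789 lower (15.9%), most of them by little: the median absolute log2 difference of all coding genes was 0.147. For 4753 coding genes (95.6%) the whole 95% interval lay within 2-fold, and for 143 further genes that were not called it reached past 2-fold. Among those 143 were 23 lower and 4 higher genes that passed the p and 2-fold but not the count minimum. Leaving out replicate 1 of snf22-(D996A-E997A) gave 38 higher and 38 lower calls.

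**Figure D1:**
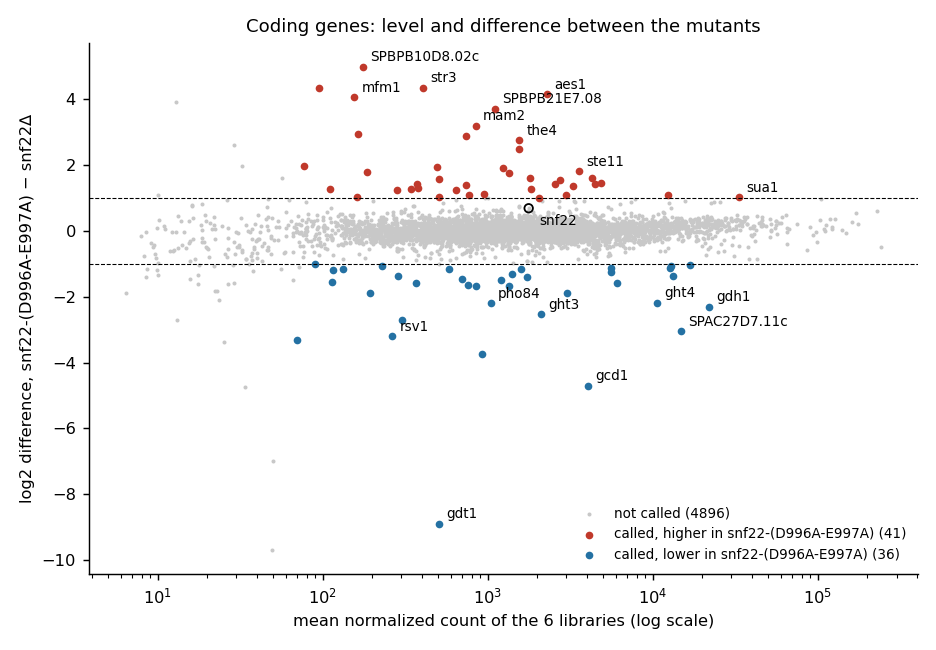
Log2 difference between snf22-(D996A-E997A) and snf22∆ (y axis) against the mean normalized count of the 6 libraries (x axis, log scale) for 4973 coding genes, one point each, with dashed lines at 2-fold. The 41 genes called higher reach 4.98 (SPBPB10D8.02c), the 36 called lower reach −8.90 (gdt1), and snf22 (open circle) lies at 0.69.

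WT took different places among these genes. For 26 of the 41 genes higher in snf22-(D996A-E997A) the WT mean lay between the mutants, for 8 above both and for 7 below both. For the 36 lower genes it lay between the mutants in 18, below both in 14 and above both in 4. The phosphate transporter gene pho84 is an example of a gene with WT above both mutants, and the hexose transporter gene ght4 of one with WT below both. Log2 differences of either mutant from WT are given below only side by side, since they share the WT libraries.

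Of the genes called higher in snf22-(D996A-E997A) several belong to the mating pathway. In fission yeast Ste11, an HMG-box transcription factor, switches on genes for pheromones, their receptors and meiosis when cells starve or meet a partner, and h- cells (M cells) make M-factor and sense P-factor. Of 8 M-cell pheromone genes tested, 5 were called higher, none lower, and all 8 passed the adjusted p upward, with a median log2 difference of 1.79. Over all coding genes 0.824% were called higher, 17.2% passed the p upward and the median was −0.01. Of 15 genes of pheromone signaling and Ste11, 6 were called higher, 8 passed the p upward and none passed it downward, with a median of 0.43. Of 5 P-cell genes only map1 was called higher and map2, which codes for P-factor, passed the p downward (−0.72). Without replicate 1 of snf22-(D996A-E997A) the called numbers of the 3 lists were 5, 5 and 1, and 7, 9 and 1 passed the p upward. Of the 8 M-cell genes 7 passed it upward with all 9 libraries in 1 fit and 6 without replicate 2 of snf22∆.

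The ste11 transcript had normalized counts of 6399.8, 5012 and 5200.1 in snf22-(D996A-E997A), against 1817, 1503 and 1409 in snf22∆ (log2 difference 1.81, SE 0.11, edgeR adjusted p = 8.2e-07). In WT it had 3630.1, 4271 and 3502, between the mutants. The transcript of mei2, whose RNA-binding product is required for meiosis, had 2032, 2112 and 2088 in snf22-(D996A-E997A) and 711, 596 and 548 in snf22∆, beside 2030.3, 1809 and 2028 in WT. For mei2 the ATPase-site mutant was thus close to WT, while every snf22∆ library was under them (log2 difference 1.75, SE 0.09, edgeR adjusted p = 1.65e-07).

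The largest difference in this group was that of mfm1, for an M-factor precursor. Its normalized counts were 295, 280.2 and 302 in snf22-(D996A-E997A), against 23.6, 15.6 and 12.8 in snf22∆, 16.6-fold higher in the ATPase-site mutant (log2 difference 4.06, SE 0.18, edgeR adjusted p = 8.2e-08). WT had 48.8, 35.2 and 36.3 for mfm1, nearer to snf22∆. For mfm2, also a precursor gene, they were 3039.7, 2424 and 2399.7 in snf22-(D996A-E997A), against 619, 435 and 343 in snf22∆ (log2 difference 2.49, SE 0.17, edgeR adjusted p = 2.2e-06), and WT, with 1880.0, 1818 and 1579.6, lay between. The third precursor gene, mfm3, was under the count minimum, at 50.1, 47.2 and 57.4 in snf22-(D996A-E997A), against 12.2, 13 and 13.8 in snf22∆, and passed the test (log2 difference 1.98, SE 0.23, edgeR adjusted p = 0.000113).

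The genes for handling the pheromone moved the same way. For mam2, the receptor for P-factor, the counts were 1429, 1567 and 1573 in snf22-(D996A-E997A), against 227, 150.0 and 122 in snf22∆, a 9.11-fold difference (log2 difference 3.19, SE 0.16, edgeR adjusted p = 2.38e-07), with 259, 198 and 252 in WT. Each snf22-(D996A-E997A) library thus held over 1000 normalized counts of mam2 and no other library of the series reached 300. For mam4, the methyltransferase that finishes M-factor, they were 2840.2, 2628 and 2631 in snf22-(D996A-E997A), against 952, 893 and 808 in snf22∆ (log2 difference 1.61, SE 0.07), and for mam1, the transporter that exports it, 4105, 4081 and 4044 in snf22-(D996A-E997A), against 2135, 1866 and 1703 in snf22∆ (log2 difference 1.10, SE 0.07). The agglutinin gene mam3 and the protease gene sxa2 passed the p with differences of 0.20 and 0.36 only.

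Along the signaling chain the differences were uneven. For spk1, the MAP kinase, the normalized counts were 2079, 1943 and 1863 in snf22-(D996A-E997A), against 631, 526 and 419 in snf22∆ (log2 difference 1.90, SE 0.12, edgeR adjusted p = 9.68e-07). The log2 difference was 0.90 for byr1, the kinase upstream of Spk1 (under the 2-fold limit), 1.01 for gpa1, the G-protein alpha subunit, 1.07 for ste6, an exchange factor of Ras, and 1.25 for ste4, an adaptor of the kinase Byr2. For byr2 itself, the PAK-related kinase gene shk1 and ste20, the Rictor homolog, it was 0.12, −0.08 and −0.09, and none of these passed the test. The gpa1 call was just past 2-fold and was lost without replicate 1 of snf22-(D996A-E997A) (0.96), without replicate 3 of snf22∆ (0.94) and with total-count scaling (0.96). The map1 transcript, which codes for a MADS-box factor needed for P-cell genes, had 294, 279 and 294 in snf22-(D996A-E997A), against 107, 78 and 65.9 in snf22∆ (log2 difference 1.78, SE 0.16, edgeR adjusted p = 1.69e-05). The arrestin-like ste7 had a log2 difference of 1.02, lost as a call without replicate 2 of snf22-(D996A-E997A) (0.95), without replicate 3 of snf22∆ (0.96) and with total-count scaling (0.96).

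The mating type was checked on marker genes. Of the M-cell genes mfm1, mfm2, mfm3, mam1, mam2 and mam3 were counted in all 9 libraries. The P-cell genes map2, map3 and map4 were counted in all 9 libraries as well, map4 at 1166 in snf22-(D996A-E997A), 1292 in snf22∆ and 1321 in WT on average, with no difference past the test between the mutants. The mating type gene mat1-Mc was listed at 0 in every library. It has near-identical silent copies, between which reads cannot be assigned, so this 0 says nothing of its level. With genes of both types counted in every library, the check does not settle the mating type of any strain. Whether the mutants differed in mating type was not tested.

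**Figure D2:**
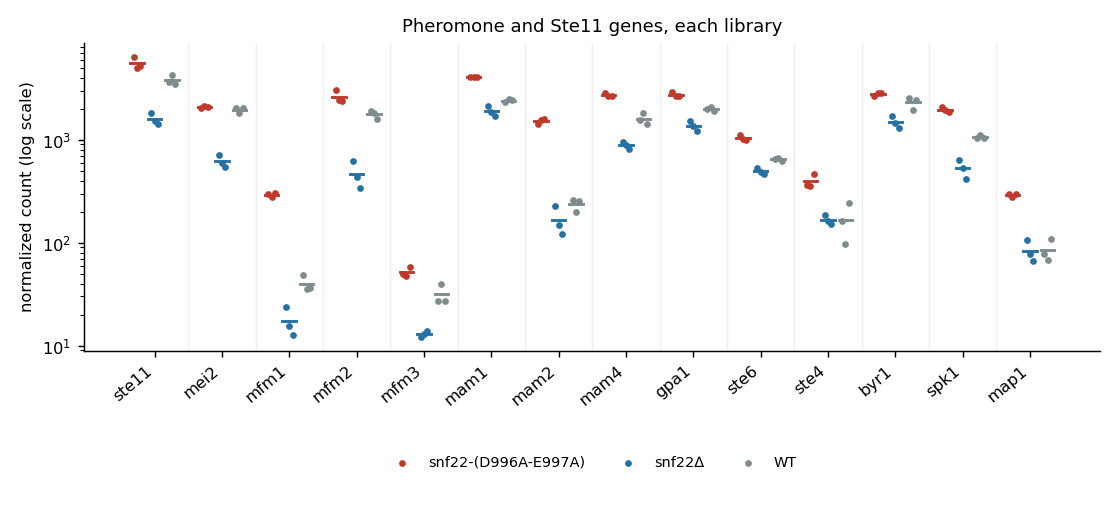
Normalized counts (y axis, log scale) of 14 pheromone and Ste11 genes in each library of snf22-(D996A-E997A), snf22∆ and WT, with short bars at the group means. All 3 snf22-(D996A-E997A) libraries lie above all 3 snf22∆ libraries for every gene shown, most widely for mfm1 (log2 difference 4.06) and mam2 (3.19).

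Iron uptake genes were also higher with the ATPase-site allele. Of 12 genes listed under iron acquisition 4 were called higher, among them the sulfiredoxin gene srx1. Of the 12, 7 passed the p upward and none downward, with a median log2 difference of 0.56. Without replicate 1 of snf22-(D996A-E997A) 3 were called and 7 passed the p upward, with a median of 0.43. Of all coding genes 0.824% were called higher and 17.2% passed the p upward. For str3, the plasma membrane heme transporter, the normalized counts were 1231, 533 and 559 in snf22-(D996A-E997A), against 63, 30.3 and 18.7 in snf22∆ (log2 difference 4.35, SE 0.41, edgeR adjusted p = 2.77e-05), and in WT 10.7, 12.5 and 2.59. The spread was wide in both mutants, replicate 1 being the highest library of each. Without replicate 1 of snf22-(D996A-E997A) the difference was 3.85 and without replicate 1 of snf22∆ it was 4.96, past the threshold both times.

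For str1, a siderophore-iron transporter, the counts were 4409.7, 3281 and 3479.7 in snf22-(D996A-E997A), against 2009, 1296 and 844 in snf22∆ (log2 difference 1.43, SE 0.23, edgeR adjusted p = 0.00106), and for frp1, the ferric-chelate reductase, 1112, 821 and 792 in snf22-(D996A-E997A), against 507, 364 and 272 in snf22∆ (log2 difference 1.25, SE 0.19, edgeR adjusted p = 0.000797). Both were lowest in WT on average, at 905 and 195. The sulfiredoxin gene srx1, held by the iron and the stress lists alike, had 803, 421 and 399 in snf22-(D996A-E997A), against 229, 234 and 197 in snf22∆, and its call was lost without replicate 1 of snf22-(D996A-E997A), where the log2 difference was 0.895 against 1.30. The permease gene fip1 (0.87), the vacuolar heme exporter gene abc3 (0.68) and the siderophore synthesis gene sib2 (0.45) passed the p under 2-fold. The ferrichrome synthetase gene sib1 (−0.06) and the ferroxidase fio1 (0.33) did not pass. Of 14 iron regulators and iron-sulfur assembly genes none was called, and the median log2 difference was −0.18. Of these 14, 6 passed the p downward and 1 upward, beside 15.9% and 17.2% of all coding genes. With all 9 libraries in 1 fit 2 passed downward.

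Genes near the left end of chromosome II formed a block that was higher in snf22-(D996A-E997A). Among the 40 coding genes nearest that end 22 were tested, and 11 were called higher and 1 lower, with a median log2 difference of 1.40. The same count was 2 higher and 1 lower of 18 at the left end of chromosome I, 1 lower of 23 at its right end, 4 lower of 22 at the right end of chromosome II, none of 37 at the left end of chromosome III and 1 higher of 39 at its right end. Over all coding genes tested 0.824% were called higher and 0.724% lower, and over chromosome II 23 and 15 of 1807. Genes near chromosome ends belong to families with similar copies, for which reads that match several places may be lost or shared.

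The core of the block was a run of 6 neighbors, aes1 to SPBPB10D8.03, with no uncalled coding gene between them. The arylsulfatase gene SPBPB10D8.02c had normalized counts of 323, 303 and 387 in snf22-(D996A-E997A), against 3.5, 13 and 15.7 in snf22∆ (log2 difference 4.98, SE 0.27, edgeR adjusted p = 3.72e-07) and 76.1, 121 and 99.9 in WT. For aes1, of the phenazine biosynthesis PhzF family, they were 6119, 3169.9 and 3675 in snf22-(D996A-E997A), against 230.1, 259 and 240.0 in snf22∆ (log2 difference 4.15, SE 0.23, edgeR adjusted p = 4.16e-07), and WT had 5154, 7189 and 5494. For both genes snf22∆ lay far under WT, while the ATPase-site mutant lay above WT for SPBPB10D8.02c and within or under the WT range for aes1.

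The pseudogene SPBPB21E7.08 had 2273, 1838 and 2038 in snf22-(D996A-E997A), against 175, 147 and 149 in snf22∆ (log2 difference 3.70, SE 0.10, edgeR adjusted p = 3.76e-09), and WT, with 1042, 951 and 1044, lay between. Among the 77 called coding genes it was the only one called in opposite directions against WT, 1.02 in snf22-(D996A-E997A) and −2.69 in snf22∆. The L-asparaginase gene SPBPB21E7.09 had a log2 difference of 1.38, the cysteine transporter SPBPB10D8.01 one of 2.88 and the pseudogene transporter SPBPB10D8.03 one of 4.35. For the next gene inward, SPBPB10D8.04c, it was 0.05, at 11.3 and 11 mean counts, which are too few to place the end of the run.

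Nearer the end, grt1, a transcription factor gene, had 253, 277 and 335 in snf22-(D996A-E997A), against 38.5, 29.5 and 44.3 in snf22∆ (log2 difference 2.95, SE 0.18, edgeR adjusted p = 8.2e-07), with 263, 212 and 236 in WT, so that only snf22∆ was low. The hexose transporter gene ght7 had 144, 107 and 118 in snf22-(D996A-E997A), against 29.7, 30.3 and 34.4 in snf22∆ (log2 difference 1.97, SE 0.18, edgeR adjusted p = 2.14e-05), with 19.5, 20.4 and 15.6 in WT, so that only snf22-(D996A-E997A) was high. For eno102, an enolase gene, the log2 difference was 1.27. For cmt2, an O-methyltransferase gene, it was 1.43, and without replicate 1 of snf22-(D996A-E997A), which had 857, 284 and 483 in replicates 1, 2 and 3, it was 0.93 and no longer called.

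Within the right end of chromosome I a few genes differed the other way and by more, while the median of the 23 tested there was 0.02. The Golgi antiporter gene gdt1 had 3, 2 and 1 raw counts in the snf22-(D996A-E997A) libraries, against 1110, 1173 and 1047 in snf22∆ and 48, 35 and 15 in WT (log2 difference −8.90, SE 0.18, edgeR adjusted p = 2.3e-10). Pooled over libraries, 6 counts faced 3330, a ratio of 504 for snf22∆ over snf22-(D996A-E997A) (exact 95% counting interval 231 to 1380). This ratio and those that follow are scaled by library size and run in the same direction. Its neighbors on either side followed at levels just under the count minimum. For SPAC186.06 no read was counted in snf22-(D996A-E997A), against 98, 114 and 112 in snf22∆, so that it was at least 98.1-fold lower on a floor of 3 counts over the group. For SPAC186.04c 2 counts faced 327 (ratio 149, interval 40.8 to 1230).

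Farther out, the aldo/keto reductase gene SPAC750.01 had 7 counts against 217 (ratio 28.2, interval 13.4 to 70.9) and between it and gdt1 the antisense RNA prl61 had 3 against 94 (ratio 28.5, interval 9.45 to 141). WT had 98 counts of gdt1 and 13, 2, 8 and 1 of SPAC186.06, SPAC186.04c, SPAC750.01 and prl61. The stretch was thus counted mainly in snf22∆, in all 3 of its libraries. These intervals cover counting error only.

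**Figure D3:**
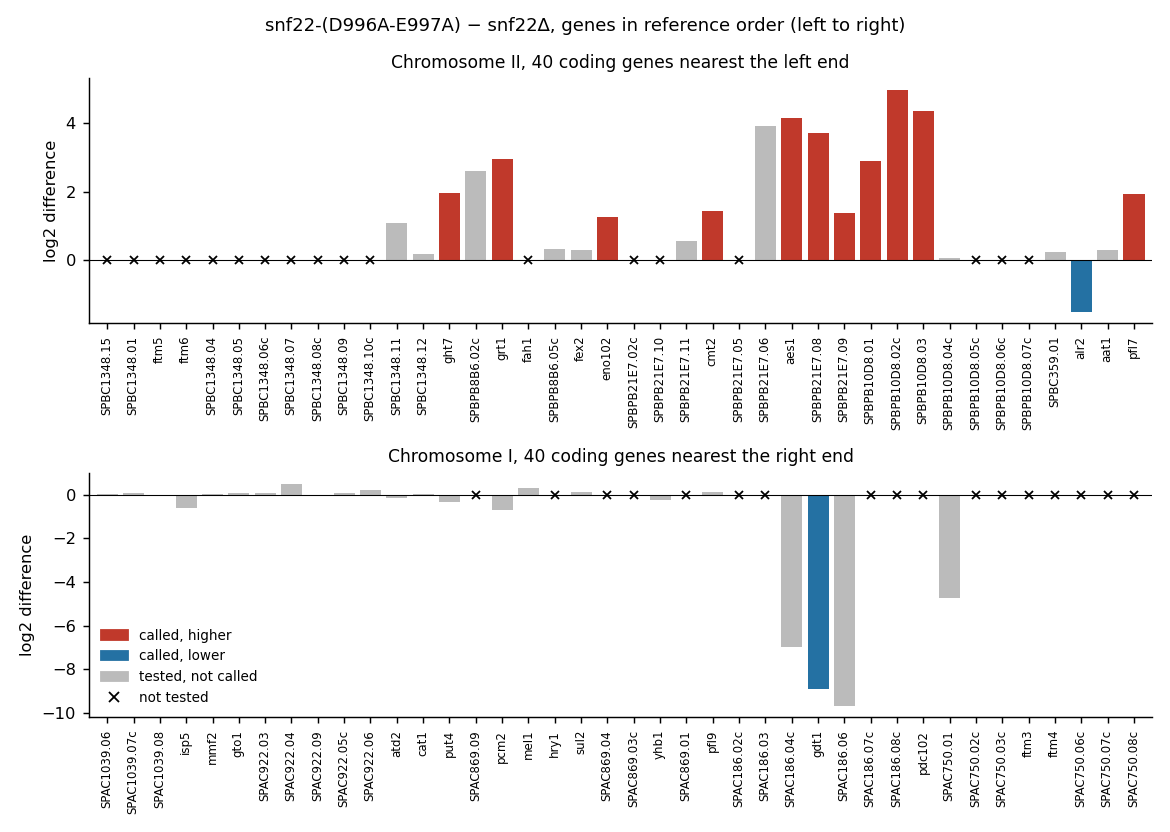
Log2 difference between snf22-(D996A-E997A) and snf22∆ (y axis) for the 40 coding genes nearest the left end of chromosome II (above) and the right end of chromosome I (below), in reference order, with crosses for genes not tested. The run of aes1 to SPBPB10D8.03 reaches 4.98, and gdt1 with its neighbors reaches −9.69 for SPAC186.06, a fitted value for a gene with no count in one mutant.

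Several genes of carbon source use were lower in snf22-(D996A-E997A). Cells growing on glucose normally repress genes for other carbon sources. Of 18 genes of glucose repression and gluconate use 3 were called lower, 11 passed the p downward and 3 upward, with a median log2 difference of −0.43, and 3 were called without replicate 1 of snf22-(D996A-E997A) too. Over all coding genes the shares were 0.724% called lower, 15.9% past the p downward and 17.2% upward. For gcd1, the glucose dehydrogenase that makes gluconate, the normalized counts were 266, 352 and 279.7 in snf22-(D996A-E997A), against 9271, 7981 and 6234 in snf22∆, a 26.1-fold difference (log2 difference −4.71, SE 0.15, edgeR adjusted p = 7.69e-09). WT had 348, 395 and 409, so snf22∆ alone was high.

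For rsv1, a zinc finger repressor, they were 61.9, 44.2 and 49.2 in snf22-(D996A-E997A), against 526, 443 and 459 in snf22∆ (log2 difference −3.20, SE 0.14, edgeR adjusted p = 8.2e-08), and in WT 12.7, 28.4 and 13. Its neighbor rbd3 had 395, 342 and 344 in snf22-(D996A-E997A), against 906, 792 and 703 in snf22∆ (log2 difference −1.15, SE 0.11, edgeR adjusted p = 2.66e-05). For gld1, the glycerol dehydrogenase, the counts were 325, 416 and 367 in snf22-(D996A-E997A), against 1293, 1139 and 1008 in snf22∆ (log2 difference −1.64, SE 0.11, edgeR adjusted p = 2.35e-06), and gut2, also of glycerol use, had a log2 difference of −0.79. The glucose repressor gene scr1 (−0.78), the activator gene rst2 (−0.50), agl1 for alpha-glucosidase (−0.90), fbp1 for fructose bisphosphatase (−0.51) and inv1 for invertase (−0.37) passed the p under 2-fold. Those that passed upward were hxk2 for hexokinase (0.89), git3 for the glucose receptor (0.39) and cgs1 (0.33).

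Of the 8 hexose and gluconate transporters 2 were called lower and 1 higher, against 0.724% and 0.824% of all coding genes. The higher one was ght7 (1.97), given above with the left end of chromosome II. For ght4 the normalized counts were 4122, 3812 and 3591 in snf22-(D996A-E997A), against 18598, 17798 and 16039.5 in snf22∆ (log2 difference −2.19, SE 0.07, edgeR adjusted p = 7.69e-09), and for ght3, the gluconate symporter, 801, 530.0 and 534 in snf22-(D996A-E997A), against 4790.1, 3486 and 2540.5 in snf22∆ (log2 difference −2.54, SE 0.22, edgeR adjusted p = 1.42e-05). Both were lowest in WT, with 405, 506 and 468 for ght4 and 87.8, 221 and 83 for ght3. Of the other members ght5, a high-affinity glucose transporter, had 55550.2, 77844 and 72579 in snf22-(D996A-E997A), against 104496, 105401 and 99660.0 in snf22∆ (log2 difference −0.59, SE 0.11, edgeR adjusted p = 0.00205), and ght1 and ght2 passed the p at −0.43 and −0.36. For ght8 and ght6 the differences of −0.19 and −0.51 did not pass.

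Of 4 galactose genes tested 1 was called lower and 3 passed the p downward, beside 0.724% and 15.9% of all coding genes. These 3 lie together near the right end of chromosome II. For gal10, the epimerase, the counts were 390.2, 308 and 415 in snf22-(D996A-E997A), against 1226, 861 and 984 in snf22∆ (log2 difference −1.46, SE 0.14, edgeR adjusted p = 3.14e-05). For gal1, the kinase, and gal7, the uridylyltransferase, the log2 differences were −0.83 and −0.42, past the p and under 2-fold. All 3 were lowest in WT, at means of 129, 302 and 112. For gms1, the Golgi UDP-galactose transporter, the difference of −0.06 did not pass.

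**Figure D4:**
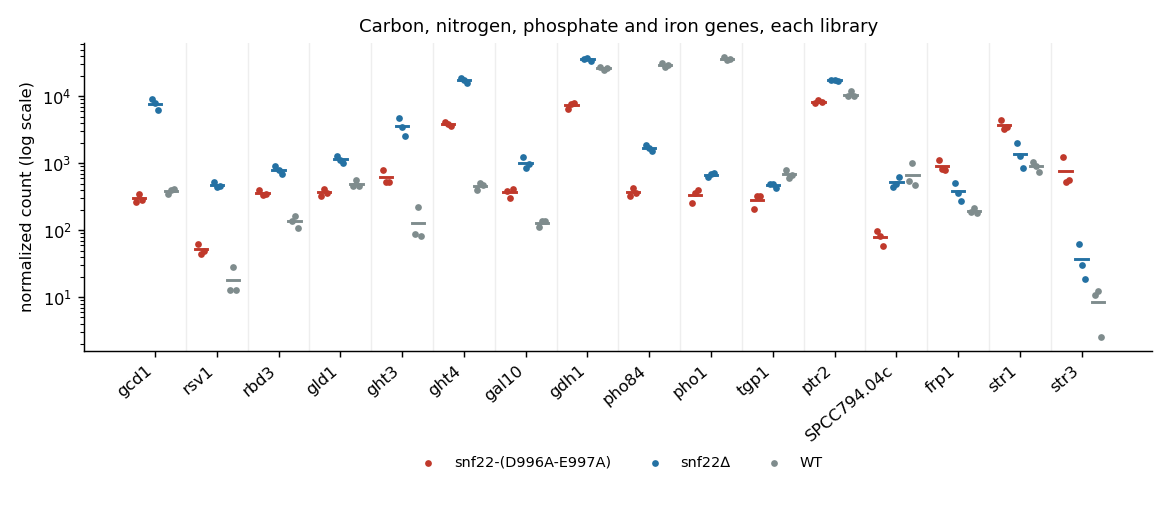
Normalized counts (y axis, log scale) of 16 carbon, nitrogen, phosphate and iron genes in each library of snf22-(D996A-E997A), snf22∆ and WT, with short bars at the group means. From gcd1 to SPCC794.04c every snf22-(D996A-E997A) library lies under every snf22∆ library, and the iron genes frp1, str1 and str3 show the reverse.

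Nitrogen and amino acid genes held single large differences. For gdh1, the NADP-specific glutamate dehydrogenase that assimilates ammonium, the normalized counts were 6475, 7643 and 7856 in snf22-(D996A-E997A), against 36760.5, 37960.4 and 34234 in snf22∆, 4.96-fold lower in the ATPase-site mutant (log2 difference −2.31, SE 0.08, edgeR adjusted p = 1.04e-08). WT had 27360.2, 24953 and 26479.7, so here snf22-(D996A-E997A) was the low strain. The amino acid transporter gene SPCC794.04c was also low in that strain alone, with 96.3, 82.6 and 57.4 in snf22-(D996A-E997A), against 440.1, 497 and 629 in snf22∆ (log2 difference −2.72, SE 0.19, edgeR adjusted p = 2.28e-06) and 544, 1014 and 481 in WT. For ptr2, the peptide transporter, the counts were 8004, 8756 and 8149 in snf22-(D996A-E997A), against 17511, 17710.0 and 17140.1 in snf22∆ (log2 difference −1.07, SE 0.05, edgeR adjusted p = 2.38e-07). Of 20 listed amino acid, peptide and urea transporters tested, these last 2 were called lower and none higher. Of the 20, 8 passed the p downward and 2 upward, beside 0.724% called lower and 15.9% past the p downward over all coding genes. The list does not hold the cysteine transporter gene SPBPB10D8.01, which was called higher (2.88). The copper amine oxidase gene cao2 had 86.5, 76.7 and 82 in snf22-(D996A-E997A), against 339, 272 and 302 in snf22∆ (log2 difference −1.90, SE 0.13, edgeR adjusted p = 2.35e-06), and WT, with 84.9, 96.5 and 126, was near the ATPase-site mutant.

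Several metabolic enzymes were lower too. For gpd3, a glyceraldehyde 3-phosphate dehydrogenase, the counts were 2936, 2927 and 3283 in snf22-(D996A-E997A), against 10678, 8848 and 7945 in snf22∆ (log2 difference −1.59, SE 0.10, edgeR adjusted p = 9.68e-07). For mae2, the malic enzyme, they were 10769, 11568 and 10832 in snf22-(D996A-E997A), against 23726, 23212 and 21089 in snf22∆ (log2 difference −1.04, SE 0.06, edgeR adjusted p = 8.2e-07), and both mutants were under WT, at 58564, 72313 and 55268. The alanine racemase gene alr2 had 639.8, 651 and 581 in snf22-(D996A-E997A), against 1869.7, 1868 and 1579.6 in snf22∆ (log2 difference −1.51, SE 0.08, edgeR adjusted p = 3.72e-07), and both mutants were above WT, at 45.9, 57.9 and 70. The glyoxylate reductase gene gor1 had a log2 difference of −1.37. The short chain dehydrogenase gene SPCC1739.08c had 137, 121 and 130.1 in snf22-(D996A-E997A), against 1999, 1738 and 1399.6 in snf22∆ (log2 difference −3.73, SE 0.14, edgeR adjusted p = 1.58e-08), and the abundant SPAC27D7.11c, of the But2 family of surface proteins, had 3616, 2956 and 3033 in snf22-(D996A-E997A), against 32956, 26072 and 20619.9 in snf22∆ (log2 difference −3.05, SE 0.15, edgeR adjusted p = 1.87e-07). WT had 3952, 8785 and 4782 for SPAC27D7.11c, so that snf22∆ was high.

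Phosphate acquisition genes, several of which the Pho7 transcription factor activates, were split. Over all coding genes 17.2% passed the p upward and 15.9% downward, or 415 and 404 of 4973 with all 9 libraries in 1 fit. The shares called were 0.824% higher and 0.724% lower. Of 7 phosphate acquisition genes tested, 3 passed the p upward and 3 downward, or 1 and 3 in the fit of all 9. Only pho84, the phosphate transporter, was called, with 327, 424 and 362 in snf22-(D996A-E997A), against 1866, 1725 and 1542 in snf22∆ (log2 difference −2.21, SE 0.10, edgeR adjusted p = 1.07e-07), and both mutants were far under WT. The acid phosphatase gene pho1 had 257, 359.9 and 399.6 in snf22-(D996A-E997A), against 624, 694 and 709 in snf22∆ (log2 difference −0.996, SE 0.14, edgeR adjusted p = 0.000403), just under the 2-fold limit, and was called lower without replicate 2 (−1.04) or 3 (−1.13) of snf22-(D996A-E997A), without replicate 1 of snf22∆ (−1.05), with total-count scaling (−1.05) and with the replicate number in the fit (−1.01). The tgp1 transcript, for a glycerophosphodiester transporter, had 207, 323 and 322 in snf22-(D996A-E997A), against 497, 499 and 433 in snf22∆ (log2 difference −0.75, SE 0.15, edgeR adjusted p = 0.00403). Against these, SPAC1039.02 (0.74, SE 0.10) and pho842 (0.89, SE 0.12) were higher in the ATPase-site mutant past the p and under 2-fold, as was the transporter gene pho843 by a smaller amount (0.27, SE 0.06). Without replicate 1 of snf22∆ pho842 was called higher, at 1.06. For pho841 the difference was −0.10 and did not pass, and SPBPB2B2.06c had under 10 normalized counts in each mutant library and was not tested.

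The transcript of pho7 itself differed by 0.17 (SE 0.06, edgeR adjusted p = 0.0406), an interval of 0.05 to 0.30. Of the noncoding RNAs upstream of these genes, prt2, upstream of pho84, had 125, 112 and 155 in snf22-(D996A-E997A), against 249, 248 and 220.3 in snf22∆ (log2 difference −0.88, SE 0.14, edgeR adjusted p = 0.000838), so that it was lower together with pho84 and under 2-fold. For nc-pho1, annotated as an untranslated transcript of the pho1 locus, the log2 difference was −0.49 (SE 0.24, edgeR adjusted p = 0.151), and for nc-tgp1, upstream of tgp1, −0.43 (SE 0.16, edgeR adjusted p = 0.0658).

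Other transporters were among the genes called higher in snf22-(D996A-E997A). The spermidine transporter gene mfs3 had 6773, 7162 and 7444 in snf22-(D996A-E997A), against 2699.9, 2549.9 and 2521 in snf22∆ (log2 difference 1.46, SE 0.06, edgeR adjusted p = 2.12e-08), and SPCC569.05c, of the same family, 3396, 2232 and 2155 in snf22-(D996A-E997A), against 1150.5, 1059 and 1009 in snf22∆ (log2 difference 1.27). For bfr1, an efflux pump for brefeldin A, the counts were 9050.4, 4869.9 and 5387 in snf22-(D996A-E997A), against 2119.9, 2214 and 2064 in snf22∆ (log2 difference 1.59, SE 0.19, edgeR adjusted p = 0.00013), replicate 1 of snf22-(D996A-E997A) being the highest, and the call stood without it. All 3 were higher still in WT on average, at 11379, 3803 and 8429.

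The flocculin genes differed in direction. Flocculins are cell surface glycoproteins of cell-cell adhesion. For pfl7 the counts were 856, 753 and 720.3 in snf22-(D996A-E997A), against 185, 234 and 192 in snf22∆ (log2 difference 1.93, SE 0.11, edgeR adjusted p = 8e-07) and for pfl8 727, 858 and 689.6 in snf22-(D996A-E997A), against 256, 249 and 255 in snf22∆ (log2 difference 1.58, SE 0.10, edgeR adjusted p = 1.42e-06), whereas pfl2 had 26114, 27622 and 27688 in snf22-(D996A-E997A), against 49506, 49953 and 49343 in snf22∆ (log2 difference −0.87, SE 0.06, edgeR adjusted p = 1.42e-06), past the p downward and under 2-fold. Further genes called higher were the4, a thioesterase gene one coding gene away from ste11, with 2361, 2988 and 2759 in snf22-(D996A-E997A), against 425, 406 and 379 in snf22∆ (log2 difference 2.74, SE 0.09, edgeR adjusted p = 7.69e-09), the sulfate adenylyltransferase gene sua1, with 43501, 44549 and 44921 in snf22-(D996A-E997A), against 22783, 22272 and 20884 in snf22∆ (log2 difference 1.01, SE 0.06, edgeR adjusted p = 6.08e-07), and sro1, a stress gene, with 6179.7, 2995 and 3149.8 in snf22-(D996A-E997A), against 1486, 1431 and 1312 in snf22∆ (log2 difference 1.54, SE 0.23, edgeR adjusted p = 0.000566). The sua1 call was lost without replicate 3 of snf22∆ (0.98) and with total-count scaling (0.96), and without replicate 1 of snf22-(D996A-E997A) the sro1 difference was 1.12. The helicase gene tlh2 was lower, with 19.7, 11.8 and 6.15 in snf22-(D996A-E997A), against 128, 127 and 124 in snf22∆ (log2 difference −3.31, SE 0.26, edgeR adjusted p = 6.25e-06), and has near-identical copies at other chromosome ends.

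The other called genes included several of unknown function. Among those higher, SPBC365.16, for a mitochondrial membrane protein, had 5098, 4626 and 4553 in snf22-(D996A-E997A), against 1773, 1881 and 1859 in snf22∆ (log2 difference 1.37, SE 0.06, edgeR adjusted p = 5.69e-08), and the hydrolase gene SPAC25B8.12c had 7388, 5911 and 6061 in snf22-(D996A-E997A), against 2722, 2412 and 2127 in snf22∆ (log2 difference 1.41, SE 0.10, edgeR adjusted p = 2.9e-06). The log2 differences of mug114, SPAC56F8.15 and the cytosine deaminase gene SPCC965.14c were 1.27, 1.12 and 1.03, and the SPCC965.14c call was lost without replicate 1 of snf22-(D996A-E997A), without replicate 3 of snf22∆ and with total-count scaling.

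Among those lower, SPAC2H10.01, for a zinc cluster transcription factor, had 502, 715 and 704 in snf22-(D996A-E997A), against 1428, 2027 and 2714 in snf22∆ (log2 difference −1.68, SE 0.20, edgeR adjusted p = 0.000168), SPAC11D3.19 had 494, 369.7 and 354 in snf22-(D996A-E997A), against 1388, 1249 and 1224 in snf22∆ (log2 difference −1.66, SE 0.12, edgeR adjusted p = 2.65e-06) and SPCC737.04, of the UPF0300 family, had 251, 153 and 154 in snf22-(D996A-E997A), against 762, 479 and 420.0 in snf22∆ (log2 difference −1.58, SE 0.24, edgeR adjusted p = 0.000718). The log2 differences were −1.54 for meu7, an alpha-amylase homolog, −1.18 for meu10, which acts in the spore wall, and −1.16 for meu6. The most abundant of the rest, SPCC1235.01, had 7261, 7109.6 and 9536 in snf22-(D996A-E997A), against 16397, 16127 and 19757 in snf22∆ (log2 difference −1.13, SE 0.11, edgeR adjusted p = 4.25e-05). For SPCC1235.17, SPAC15E1.02c, SPCC1393.12, SPCC417.16, SPAC637.03, SPBC1105.13c and mug108 the log2 differences were −1.40, −1.38, −1.32, −1.25, −1.17, −1.07 and −1.02. The mug108 call was lost without replicate 2 of snf22-(D996A-E997A) and without replicate 1 or 2 of snf22∆, and that of SPBC1105.13c without replicate 1 of snf22∆.

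Among pairs of called genes with no coding gene between them, 6 differed in the same direction and 2 in opposite directions, and with 1 gene between them 6 and 3. Of the same-direction pairs 5 of the 6 and 4 of the 6 came from the run of aes1 to SPBPB10D8.03. The others were rsv1 with rbd3, and, with 1 gene between, ght7 with grt1 and the4 with ste11. The opposite neighbors were ght4 (−2.19) beside frp1 (1.25), SPBPB7E8.02 (−1.12) beside SPBPB7E8.01 (1.08, or 0.995 and not called without replicate 1 of snf22-(D996A-E997A)), ght3 (−2.54) one gene from str3 (4.35), and pfl7 (1.93) one gene from both alr2 (−1.51) and mug14 (−1.89). In 2 of these 5 pairs a hexose or gluconate transporter that was lower stood near an iron uptake gene that was higher. Between ght3 and str3 lies shu1, a heme uptake gene with under 15 normalized counts in each mutant library and a log2 difference of −0.14 (SE 0.56).

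Among 1040 noncoding RNAs tested, 18 were called higher in snf22-(D996A-E997A) (1.73%) and 18 lower (1.73%). By the adjusted p alone 109 (10.5%) and 195 (18.8%) differed in these directions. Libraries were made from poly(A)+ RNA with a strand-specific kit, and the strand setting of the counting is not given in the sources used here, so antisense RNAs are described together with the gene they overlap. The largest difference upward was that of omt3, a meiotic long noncoding RNA beside mei2, with 176, 113 and 84 in snf22-(D996A-E997A), against 14, 13 and 7.87 in snf22∆ (log2 difference 3.39, SE 0.34, edgeR adjusted p = 3.67e-05). WT had 320.2, 589 and 537, above both mutants, and without replicate 1 of snf22-(D996A-E997A) the mean of omt3 fell under the count minimum. SPNCRNA.993, also beside mei2, had 134, 120.0 and 130.1 in snf22-(D996A-E997A), against 51.6, 46 and 39.3 in snf22∆ (log2 difference 1.48, SE 0.16, edgeR adjusted p = 5.98e-05), so that the coding gene and 2 RNAs beside it were higher together.

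SPNCRNA.1305, antisense to SPBPB21E7.08, differed by 1.33 where the sense locus differed by 3.70. The RNA cdc23-antisense-1 had 986, 968 and 1027 in snf22-(D996A-E997A), against 309.7, 263 and 233 in snf22∆ (log2 difference 1.88, SE 0.10, edgeR adjusted p = 3.85e-07). It overlaps cdc23 (−0.28) and the stress gene sro1 (1.54). Among the RNAs called higher, rec11-antisense-1, hip3-antisense-1 and ams2-antisense-1 differed by 1.66, 1.70 and 1.41, while their sense genes differed by −0.15, −0.14 and −0.26.

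The largest difference downward was that of SPNCRNA.1120, between the hexose transporter genes ght8 and ght1, with 64.9, 76.7 and 72.8 in snf22-(D996A-E997A), against 734, 775 and 812 in snf22∆ (log2 difference −3.44, SE 0.11, edgeR adjusted p = 7.69e-09) and 5.86, 5.68 and 14.3 in WT. Every snf22∆ library was thus above every other library, whereas ght8 and ght1 differed by −0.19 and −0.43 between the mutants. The RNA qcr10-antisense-1, next to rsv1, had 19.7, 21.6 and 17.4 in snf22-(D996A-E997A), against 128, 122 and 117 in snf22∆ (log2 difference −2.64, SE 0.17, edgeR adjusted p = 1.73e-06), and was thus lower together with rsv1, while for qcr10 the difference of −0.15 did not pass. SPNCRNA.1318, antisense to ght4 and mal1, had 551, 514 and 532 in snf22-(D996A-E997A), against 2008, 1639 and 1474 in snf22∆ (log2 difference −1.68, SE 0.11, edgeR adjusted p = 1.09e-06). It was lower together with ght4 (−2.19), whereas mal1 (0.14) did not pass and frp1, beside it, was higher (1.25). The RNA meu3 had 143, 97.3 and 95.3 in snf22-(D996A-E997A), against 582, 581 and 576 in snf22∆ (log2 difference −2.37, SE 0.14, edgeR adjusted p = 8.44e-07), with the coding genes on either side at 0.68 and −0.08.

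Several gene lists held no called member, where 0.824% of all coding genes were called higher and 0.724% lower. Besides SWI/SNF and RSC these included 14 other remodeler ATPases, 20 heterochromatin factors, 22 cell wall genes, 13 targets of the MBF cell cycle factor, 22 cleavage, polyadenylation and termination factors, and 12 peroxins. In the 6 lists just given every tested member had a 95% interval within 2-fold, beside 95.6% of all coding genes. Among 11 histone genes none was called, and 5 passed the p downward where 15.9% of all coding genes did. That number was 1 without replicate 2 or 3 of snf22-(D996A-E997A), without replicate 2 of snf22∆ and with all 9 libraries in 1 fit, 2 without replicate 3 of snf22∆ and with the replicate block, and 3 with DESeq2 size factors or scaling over 6 libraries. The largest difference was that of htb1, for histone H2B, with 32615, 29946 and 28933 in snf22-(D996A-E997A), against 55813, 56589 and 54086 in snf22∆ (log2 difference −0.86, SE 0.06, edgeR adjusted p = 3.93e-06), under the 2-fold limit.

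**Figure D5:**
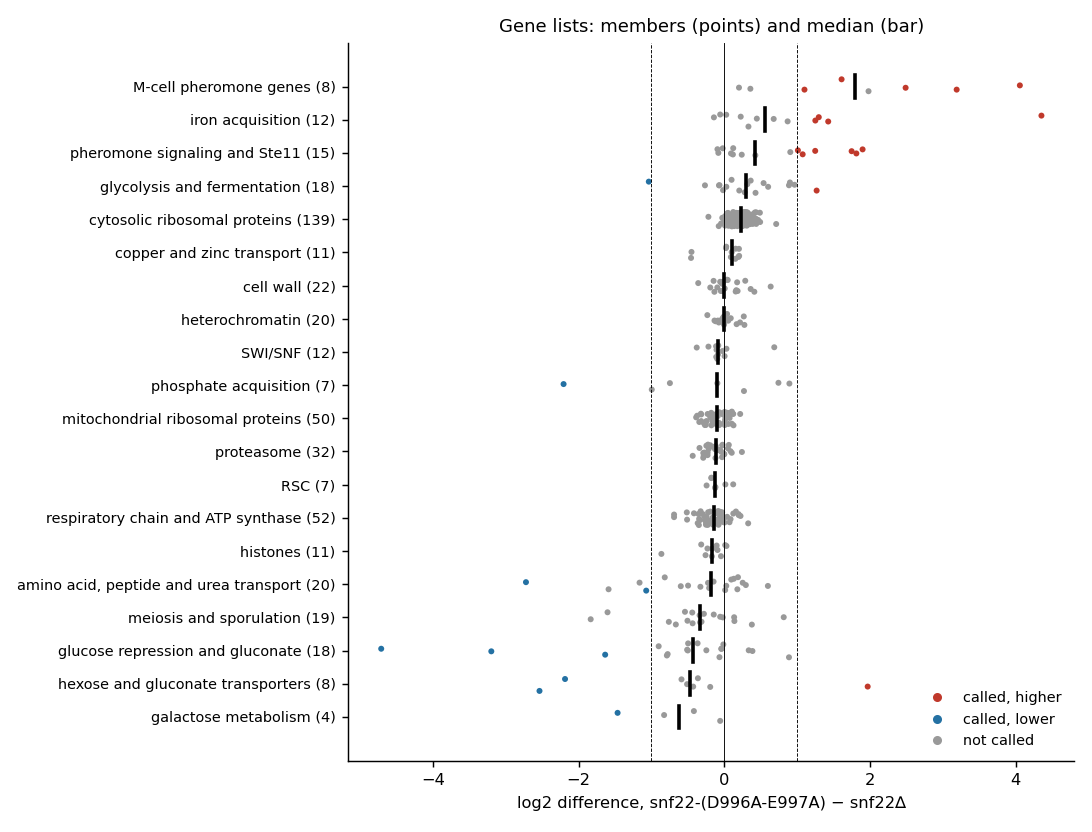
Log2 difference between snf22-(D996A-E997A) and snf22∆ (x axis) of the tested members (points, shifted at random in height) and the median (black bar) of 20 gene lists, with the number of tested members in brackets and dashed lines at 2-fold. M-cell pheromone genes have the highest median shown (1.79), galactose genes the lowest (−0.62), and the bars of SWI/SNF and heterochromatin lie near 0.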

How the data were processed

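Poly(A)+ RNA of 9 cultures, 3 of each genotype, was sequenced. The authors used HISAT2 2.1.0 for alignment of the paired reads to ASM294v2 and HTSeq 0.10.0 for counting. The deposited matrix gives unscaled raw counts by gene. The authors' own fold changes and p-values were not used. The matrix holds 6988 gene IDs, and 1 on more than 1 line was summed. Names, classes and gene order came from a RefSeq annotation of another build, so no coordinates or sequences are given; 6836 IDs matched by locus tag, 12 by synonym, and 140 did not. Reads on near-identical copies may be lost or shared.

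The quasi-likelihood test of edgeR 4.0.16 (R 4.3.3) was run on the 6013 genes that reached 10 counts in 3 or more of the 6 libraries. TMM factors came from all 9 libraries, the model held genotype alone, and p-values were adjusted over all these genes by Benjamini-Hochberg. The thresholds for a call are those of the study. Standard errors come from the F statistic, and normalized counts were scaled to the average of the 9 effective library sizes. Values relative to WT come from a fit of all 9 libraries. The biological coefficient of variation was 0.0705. Alternatives were DESeq2 1.42.0, other scalings, filters, thresholds and fits, a replicate block, and leaving out each library. The test was checked on simulated counts.

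Genes named are the SWI/SNF and RSC subunits, the 15 largest called differences in either direction, the called members of a list up to a limit of 5 (or else its most abundant member), phosphate genes and their RNAs, the 6 largest called noncoding RNAs each way, the neighbors of the 5 largest, and genes called in opposite directions against WT. Other genes named, list members included, were chosen after their values were seen. Members and lists were chosen with earlier results of these data known.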

Additional observations from a re-analysis of the deposited data

How the results depend on the processing

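The 41 higher and 36 lower coding calls and the 18 and 18 noncoding calls depended little on the scaling, the filter, the tool or the samples. With DESeq2 instead of edgeR 43 and 36 coding genes were called, among them all 77 of the main result. Leaving out 1 library gave 38 to 48 higher and 36 to 38 lower coding calls, and 16 to 18 and 18 to 20 noncoding calls. The thresholds mattered more. At 1.5-fold 93 coding genes were higher and 103 lower, and 37 and 48 noncoding RNAs. Without the minimum of 100 normalized counts 59 coding genes were lower, and 32 noncoding RNAs were higher and 92 lower. By the adjusted p alone, 855 higher and 789 lower coding genes became 415 and 404 with all 9 libraries in 1 fit, and total-count scaling, which shifted the median of coding genes by −0.054, gave 619 and 1094. The 95% interval of the difference lay within 2-fold for 4721 to 4755 coding genes over alternatives chosen for it after seeing the data.

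Same-numbered replicates of the mutants did not deviate together (correlations of −0.031, 0.101 and 0.062), so the numbers were not taken as pairs, and not every sample correlated best with its own number. With the replicate block 41 coding genes were higher and 37 lower, and 18 and 18 noncoding RNAs, and 4753 intervals lay within 2-fold.

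Called genes kept their direction in every setting. Values of genes that did not pass the test changed sign in some: with total counts snf59 (−0.026), arp9 (−0.051), rsc9 (−0.040), zip1 (−0.031) and SPBPB10D8.04c (−0.001) became negative. Leaving out 1 library, the ranges were −0.089 to 0.15 for snf59, −0.036 to 0.033 for arp9, −0.003 to 0.036 for rsc9, −0.092 to 0.092 for zip1, −0.24 to 0.23 for SPBPB10D8.04c, −0.19 to 0.014 for ssr3, −0.18 to 0.005 for ssr4, −0.065 to 0.041 for arp42, −0.17 to 0.013 for tfg3, −0.015 to 0.13 for cdc22 and −1.05 to 0.29 for shu1.

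With 3 cultures of 1 strain per genotype, differences under about 2-fold in weakly counted genes could not be placed, and a difference between strains other than the allele cannot be told apart.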

Other observations

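Some large gene classes held many small differences. Of 139 cytosolic ribosomal protein genes 91 passed the adjusted p of edgeR upward in snf22-(D996A-E997A) relative to snf22∆ and 1 downward, with a median log2 difference of 0.23, and none was called. Over all coding genes 17.2% passed upward and 15.9% downward, or 415 and 404 of 4973 with all 9 libraries in 1 fit. The ribosomal protein median was 0.18 to 0.27 over the alternative settings, and 48 of these genes passed upward with all 9 libraries in 1 fit. Of 18 listed glycolysis and fermentation genes 10 passed upward and 1 downward, among them eno102, called higher, and mae2, called lower. The list does not hold gpd3, for a glyceraldehyde 3-phosphate dehydrogenase, which was called lower (−1.59). For gpm1, phosphoglycerate mutase, the normalized counts were 133932, 141056 and 142075 in snf22-(D996A-E997A), against 77076, 70791 and 65982 in snf22∆ (log2 difference 0.96, SE 0.07, edgeR adjusted p = 5.43e-06). For fba1, aldolase, they were 250283, 281030.0 and 289810.0 in snf22-(D996A-E997A), against 189078, 183077 and 169190.0 in snf22∆ (log2 difference 0.60, SE 0.08, edgeR adjusted p = 0.000324), and for adh1, alcohol dehydrogenase, 192070.0, 203147 and 212009 in snf22-(D996A-E997A), against 148073, 142147 and 127794 in snf22∆ (log2 difference 0.54, SE 0.08, edgeR adjusted p = 0.000507). For tdh1, the main glyceraldehyde 3-phosphate dehydrogenase, the counts of 87214, 168893 and 178998 in snf22-(D996A-E997A), against 187053, 146160.0 and 124498 in snf22∆ overlapped, replicate 1 of snf22-(D996A-E997A) being the lowest.

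In 3 other classes no gene was called and more passed the p downward than upward. Of 52 genes of the respiratory chain and ATP synthase 19 passed the p downward and 2 upward, of 50 mitochondrial ribosomal protein genes 12 downward and 1 upward, and of 32 proteasome genes 11 downward and 1 upward, beside the 15.9% downward over all coding genes. Their medians were −0.14, −0.10 and −0.12, and all intervals lay within 2-fold. With all 9 libraries in 1 fit the numbers past the p downward were 15, 5 and 3, beside 404 of all 4973 coding genes. Without replicate 2 of snf22-(D996A-E997A) 5 mitochondrial ribosomal protein genes passed downward, without replicate 1 of snf22∆ 6, and without its replicate 2 or 3 8.

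Below the count minimum, 23 coding genes were past the p and 2-fold downward and 4 upward. Those downward included meiotic and sporulation genes at low levels in both mutants. The recombinase gene dmc1 had 11.8, 10.8 and 6.15 in snf22-(D996A-E997A), against 34.1, 22.5 and 48.2 in snf22∆ (log2 difference −1.83, SE 0.37, edgeR adjusted p = 0.00356), the sporulation septin gene spn6 had 46.2, 20.6 and 35.9 in snf22-(D996A-E997A), against 81.4, 95.4 and 114 in snf22∆ (log2 difference −1.49, SE 0.25, edgeR adjusted p = 0.00118), and atf21, of the Atf-CREB family, had 25.6, 12.8 and 17.4 in snf22-(D996A-E997A), against 35.9, 44.2 and 35.4 in snf22∆ (log2 difference −1.05, SE 0.27, edgeR adjusted p = 0.0137). Of 19 listed meiosis and sporulation genes tested none was called and 5 passed the p downward, beside 15.9% of all coding genes. That number was 3 without replicate 2 of snf22-(D996A-E997A) or of snf22∆, and 6 with the replicate block. With a filter of at least 50 counts in 3 libraries it was 2 of 7 tested. The list does not hold mei2 (1.75, called higher) or meu10 (−1.18, called lower). The 4 upward were SPBPB8B6.02c and SPBPB21E7.06, within the block of chromosome II described above, gnr1, for a G protein beta subunit, and mfm3. For gnr1 the normalized counts were 104, 68.8 and 84 in snf22-(D996A-E997A), against 26.2, 32.1 and 25.6 in snf22∆ (log2 difference 1.61, SE 0.21, edgeR adjusted p = 0.000275).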
